A study of Bos taurus with 106 samples.

Results

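SLC27A2, ACSL1 and DBI encode 3 proteins that handle fatty acids as they enter hepatic metabolism. Each was represented by 1 cDNA element, found by its gene symbol in the array's gene annotation, so the set holds 3 elements of the 8208 on the array, and 3 genes of the 4452 distinct symbols among elements with 1 symbol. All 3 gene IDs carry the same symbol in the RefSeq gene table.

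The livers came from 8 Holstein cows in the study of prepartum plane of nutrition. All 8 received a diet of moderate energy density, 1.60 Mcal/kg, throughout a dry period of 65 days. The 4 restricted cows (6877, 6952, 7045 and 7105) ate about 80% of their requirement, and the 4 ad libitum cows (6886, 7050, 7161 and 7187) ate about 120%. Liver RNA was profiled on days -65, -30, -14, 1, 14, 28 and 49 relative to calving. On days -30, -14, 1, 14 and 28 each diet had 4 cows. On day -65 there were 4 restricted and 3 ad libitum cows, and on day 49 there were 4 restricted and 2 ad libitum cows. Per the labels, the feeding levels applied to the dry period. The sources used here give neither the ages of the cows nor their feeding in lactation. Each of the 53 samples, called a cow-day, was hybridised on 2 arrays against a reference made from tissues other than liver, once with liver in Cy5 and once with liver in Cy3. A level below is the log2 of liver over reference, averaged over both arrays of a cow-day. A level of 0 therefore means as much signal from liver as from the reference, and a difference of 1 means a doubling.

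A fatty acid has to be joined to coenzyme A before the cell can oxidise it or build it into lipid. SLC27A2, also called fatty acid transport protein 2 or very long-chain acyl-CoA synthetase, takes part in fatty acid uptake and activation and is abundant in liver. ACSL1 is a main long-chain acyl-CoA synthetase of liver, and DBI, also known as acyl-CoA binding protein, carries the activated acyl-CoA esters in the cytosol. Around calving a dairy cow mobilises body fat, and the liver takes up a larger flow of fatty acids, which it oxidises, turns into ketone bodies or stores and exports as triglyceride.

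The arrays carried 3 elements for hepatocyte markers, and all 3 lay above the reference, with mean levels of 5.17 for the bile acid transporter SLC10A1, 4.65 for transferrin (TF) and 1.00 for APOA1. All 8 endothelial elements and 9 of 10 macrophage elements also lay above the reference, 3 of 5 T and NK cell elements did, and 0 of 7 stellate cell and fibroblast elements did. No listed marker of blood or adipocytes was among the named elements. The samples did not all measure equally well. The correlation over elements between both arrays of a cow-day averaged 0.485 (range 0.0332 to 0.796, n = 24) on days -14, 1 and 14 and 0.688 (range 0.530 to 0.816, n = 29) on the other days. It was under 0.6 in 20 cow-days, among them all 4 ad libitum samples of day 1. The grouping of days -14, 1 and 14 was made after the values were seen. No value of SLC27A2, ACSL1 or DBI was missing on any of the 106 arrays. Duplicate spots of each of the 3 elements correlated at 0.995 to 0.999 over arrays.

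SLC27A2, the transporter and synthetase, was high in the early dry period, fell between day -30 and day -14, stayed low through day 14 and was high again on days 28 and 49. On day -65 its level ran from 1.23 to 2.91 with a median of 1.88 (n = 7). On day -30 it ran from 1.51 to 2.70 with a median of 2.13 (n = 8). On day -14 it ran from -0.47 to 2.24 with a median of 0.80 (n = 8). Restricted cows 6952 and 7105 were lowest on day -14, at -0.34 and -0.47, below the reference, while restricted cow 6877 alone stayed high, at 2.24. Every other cow was at 1.15 or lower that day, and the lowest of day -30 was cow 6877 itself at 1.51, so the overlap between days -30 and -14 came from that cow.

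On day 1 the level of SLC27A2 ran from 0.28 to 1.70 with a median of 0.82. On day 14 it ran from 0.28 to 1.57 with a median of 1.08. On day 28 it ran from 1.62 to 2.51 with a median of 1.96, so days 14 and 28 did not overlap. On day 49 all 6 cows measured lay between 2.56 and 3.14, with a median of 2.72, above every cow of day 28. Cow 7105 covered the widest range of any cow, 3.61 log2 units between day -14 and day 49, and cow 6877 the narrowest, 1.33 units.

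**Figure D1:**
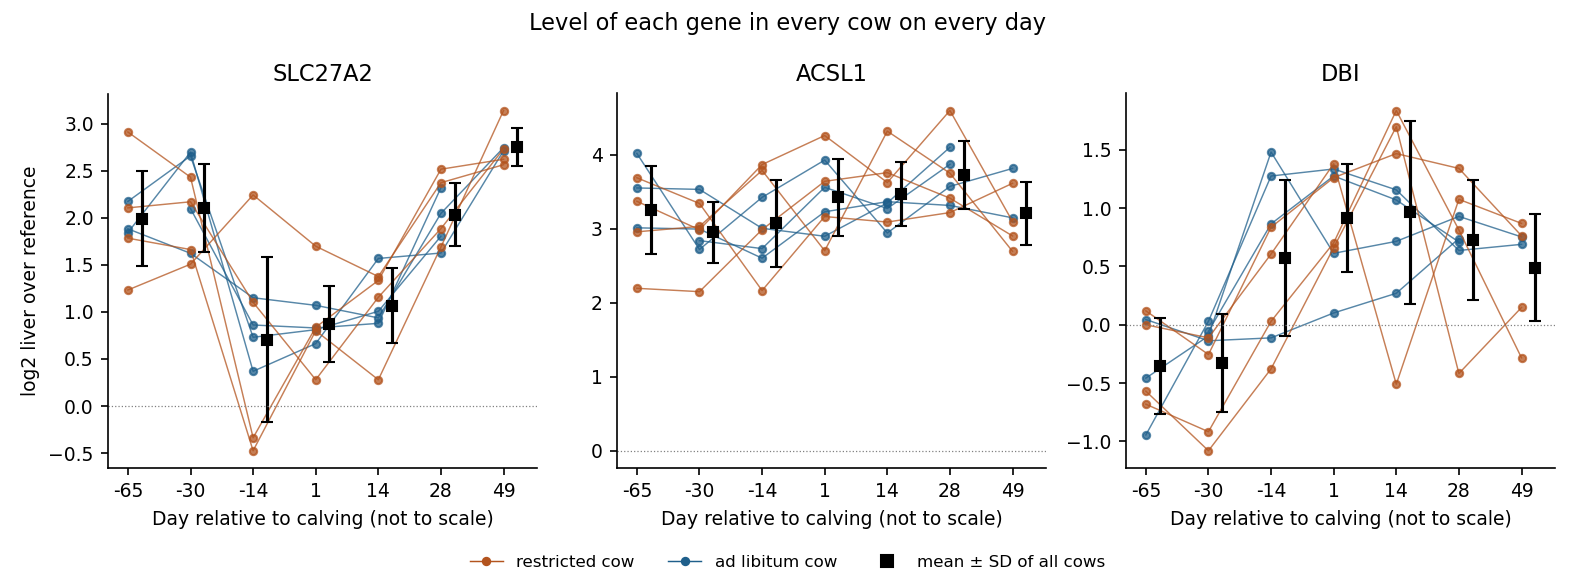
Level of SLC27A2, ACSL1 and DBI (log2 liver over reference, vertical axis) in each cow on each sampling day (horizontal axis, evenly spaced); lines join the samples of a cow, colours mark the diet, and black squares with bars give the mean ± SD of all cows. SLC27A2 averaged 0.71 on day -14 and 2.75 on day 49, ACSL1 stayed between 2.95 and 3.73, and DBI went from -0.36 on day -65 to 0.96 on day 14.

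In the order of the day means, SLC27A2 stood at 2.75 ± 0.20 (SD, n = 6) on day 49, followed by 2.10 ± 0.47 on day -30, 2.03 ± 0.34 on day 28 and 1.99 ± 0.51 on day -65. Days 14, 1 and -14 came last, at 1.07 ± 0.40, 0.87 ± 0.40 and 0.71 ± 0.87. The gaps between neighbours in this order exceeded the larger of both SDs in 2 places, between day 49 and day -30 and between day -65 and day 14. Neighbours within the middle set (days -30, 28 and -65) and within the low set (days 14, 1 and -14) did not differ beyond their spread.

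Across the 7 days SLC27A2 passed the test for any difference between days (adjusted p = 8.25e-08, limma with the cow as a random block and Benjamini-Hochberg adjustment over 8061 elements). In that test 43.4% of all elements passed, so a pass as such was common on these arrays. DBI passed as well (adjusted p = 5.82e-05). ACSL1 did not (adjusted p = 0.107).

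The fall of SLC27A2 from day -30 to day -14 was 1.40 ± 0.26 log2 units (estimate -1.40 ± SE 0.26, 95% confidence interval -1.92 to -0.88, 0.38-fold), seen in 7 of 8 cows. It passed the test (adjusted p = 6.36e-05), as did 33.5% of all elements. Against day -65 the difference was -1.28 ± 0.27, in the same direction in 6 of 7 cows (adjusted p = 0.000348, background 31.7%). Both comparisons use the same day -14 samples. From day -65 to day -30 the difference was 0.12 (95% interval -0.42 to 0.66), and it did not pass (background 0.112%).

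Between day -14 and day 14 no step of SLC27A2 passed. Day 1 was 0.17 above day -14 (95% interval -0.35 to 0.69), a comparison in which 0.397% of elements passed. Day 14 was 0.19 above day 1 (interval -0.33 to 0.71), with a background of 0.707%. These intervals allow changes in either direction.

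SLC27A2 then rose from day 14 to day 28 by 0.97 ± 0.26 (1.95-fold, higher in 8 of 8 cows, adjusted p = 0.0124), where 8.62% of elements passed. This call depended on single animals and settings. The adjusted p was 0.0753 without cow 7050 and 0.0539 without cow 7161. With liver in Cy5 alone the rise was 0.64 (adjusted p = 0.229), and with liver in Cy3 alone 1.29 (adjusted p = 0.00143). From day 28 to day 49 the level was 0.72 ± 0.29 higher, in 6 of 6 cows and with no overlap between the days, but this step did not pass (adjusted p = 0.592), and 0.0124% of all elements did.

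Set against day -14, SLC27A2 was higher on day 28 by 1.33 ± 0.26 (95% interval 0.81 to 1.85, 8 of 8 cows, adjusted p = 0.000189, background 23.1%). On day 49 it was 4.12-fold higher than on day -14 (interval 1.46 to 2.62 on the log2 scale, 6 of 6 cows, adjusted p = 1.09e-06, background 33.9%), which was rank 71 by p among the 8061 elements. Day 28 and day -30 differed by -0.07 (interval -0.59 to 0.45), where 0.347% of elements passed. Day 49 was 0.76 ± 0.30 above day -65, in 5 of 6 cows, which did not pass (adjusted p = 0.560, background 0.0620%).

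**Figure D2:**
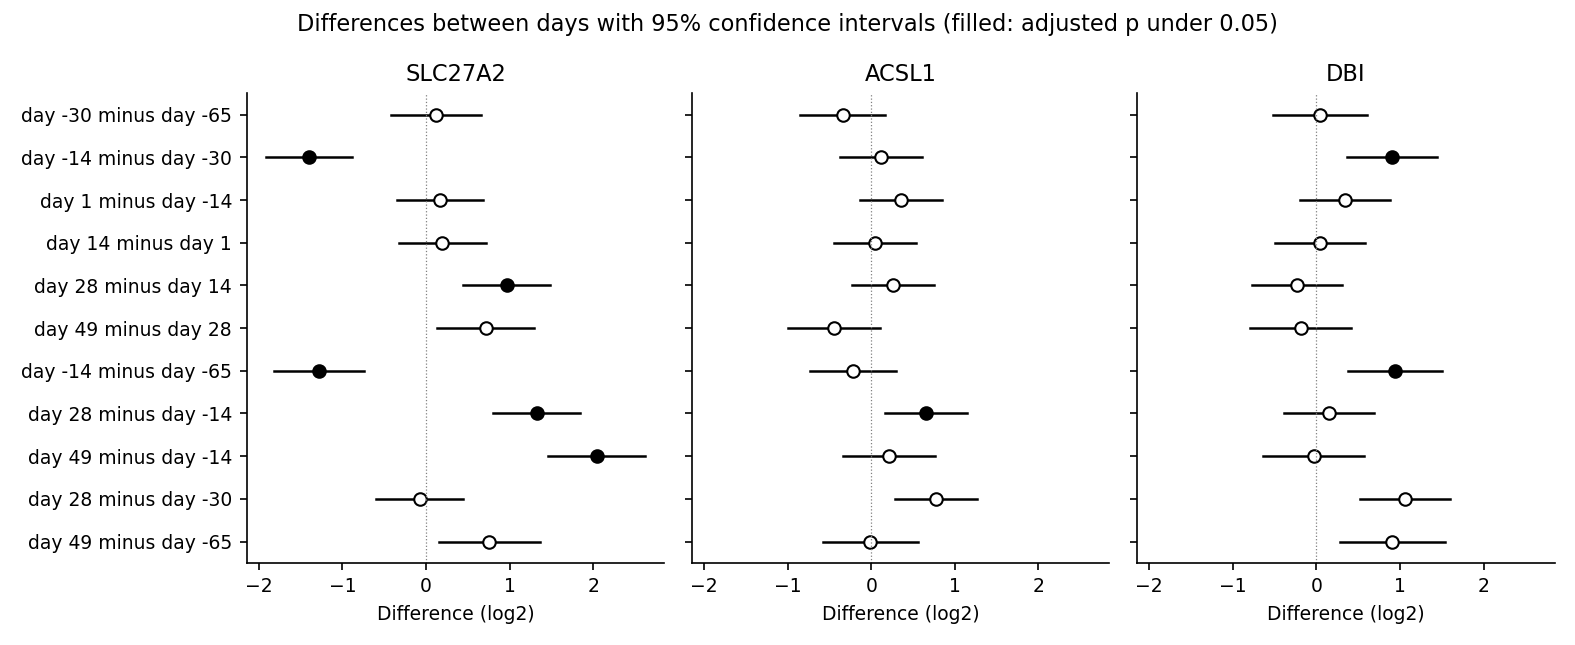
Differences between days for each gene (log2, horizontal axis; dots are estimates and lines are 95% confidence intervals; filled dots passed at an adjusted p under 0.05). SLC27A2 has 5 filled dots, ACSL1 has 1 (day 28 against day -14, 0.66) and DBI has 2 (day -14 against days -30 and -65, 0.90 and 0.94). In the comparisons with a filled dot, from 8.62% to 33.9% of all elements passed.

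SLC27A2 was lower on day -14 than on day -65 and higher again on day 28 in the means of both diets, but the calls within a diet rested on few cows. From day -65 to day -14 the restricted cows changed by -1.37 ± 0.36, lower in 3 of 4 (adjusted p = 0.00488, background 28.4%), and the ad libitum cows by -1.19 ± 0.39, lower in 3 of 3 (adjusted p = 0.0429, background 10.9%). The restricted call was lost without cow 6952 (-0.75, adjusted p = 0.207), without cow 7105 (-1.08, adjusted p = 0.0646), without centring (-0.99, adjusted p = 0.113) and without the cow-days of low agreement (-1.12, adjusted p = 0.219). Without restricted cow 7045 the ad libitum estimate stayed at -1.19, but it did not pass (adjusted p = 0.0599). The ad libitum call was lost without cow 6886, 7050, 7161 or 7187, all of that diet (adjusted p from 0.0748 to 0.240). It was also lost with the cow as a fixed block (adjusted p = 0.0534), without centring (-0.60, adjusted p = 0.324), with liver in Cy5 alone (-0.63, adjusted p = 0.341), under scale and quantile normalization, with the second spot only and under all 4 settings that use agreement between orientations. Without the cow-days of low agreement the ad libitum estimate was -0.86, with cow 7161 the only cow of that diet left on day -14. In the main fit the changes differed between diets by 0.19 (95% interval -0.90 to 1.27, adjusted p = 0.868, background 1.30%). From day -14 to day 28 the restricted cows rose by 1.48 ± 0.36, 4 of 4 of them (adjusted p = 0.00390, background 19.4%). That call was lost without cow 6952 (1.03, adjusted p = 0.0937), without centring (0.76, adjusted p = 0.155) and without the cow-days of low agreement (1.15, adjusted p = 0.143). The ad libitum difference was 1.17 ± 0.36, also higher in 4 of 4 cows and with no overlap between the days. It had an adjusted p of 0.0503 (background 4.91%), and 6 alternatives brought it under the threshold. Scale normalization was among them (1.46, adjusted p = 0.00766). So were the fits without restricted cow 6877, 6952 or 7105, where the ad libitum estimate stayed at 1.17. Other alternatives went the opposite way. With every cow kept, the estimate fell as low as 0.65 and the adjusted p rose as high as 0.710. The test of the difference between diets gave -0.31 (interval -1.35 to 0.73, adjusted p = 0.852, background 0%, with 678 elements at an unadjusted p under 0.05 in limma).

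On the same days other signals moved as well. The mean level of the 3 hepatocyte marker elements was 4.24 on day -65 (range over cows 3.94 to 4.54), 3.01 on day -14 (2.86 to 3.40), 2.96 on day 1 (2.83 to 3.11) and 4.16 on day 28 (3.87 to 4.54). From day -30 to day -14, 2 of 3 hepatocyte elements fell, where 33.5% of all elements passed, and from day -14 to day 28, 2 of 3 rose, where 23.1% passed. The 8 endothelial elements averaged 1.83 on day -65, 1.27 on day -14 and 1.74 on day 28, while the 7 stellate cell and fibroblast elements averaged -2.65, -1.76 and -2.52. Their part in the course of SLC27A2 was not tested. In bulk liver, fewer cells of a type and less RNA per cell cannot be told apart.

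**Figure D3:**
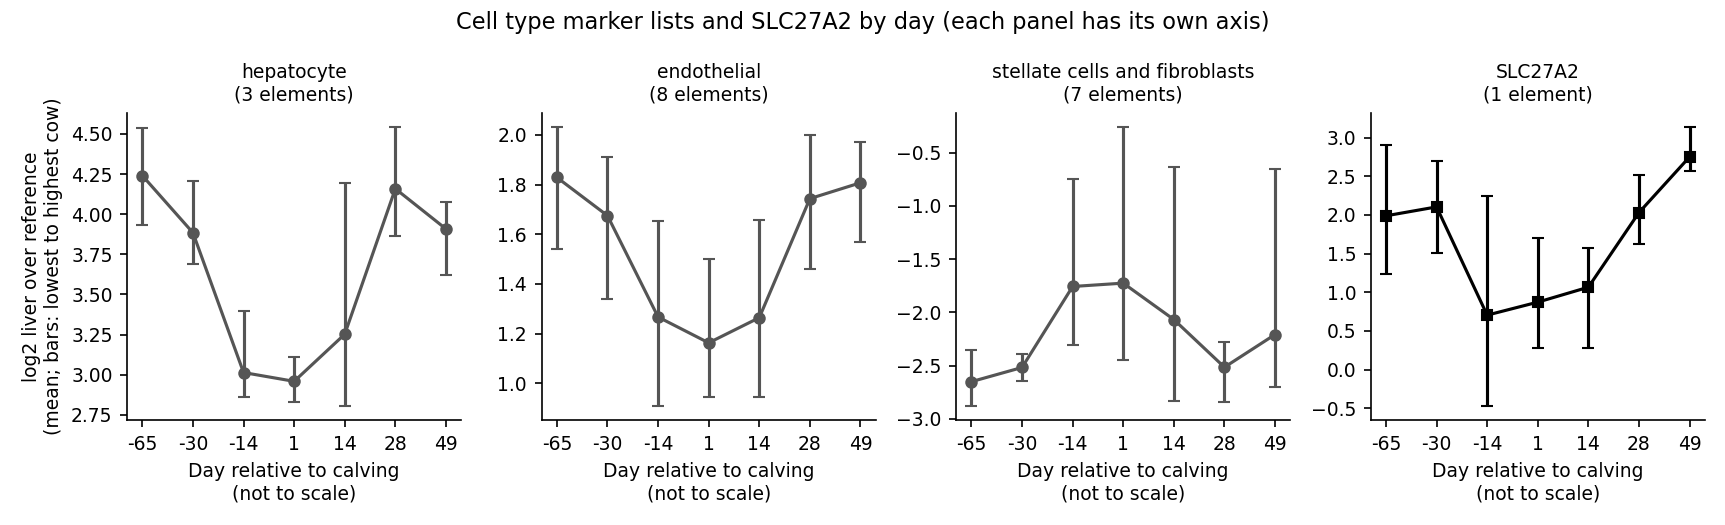
Mean level of 3 marker lists and level of SLC27A2 (log2 liver over reference, vertical axes, each panel on its own scale) by sampling day; points are means over cows and bars run from the lowest to the highest cow. The hepatocyte list dropped from 4.24 on day -65 to 3.01 on day -14 and stood at 4.16 on day 28, and SLC27A2 went from 1.99 to 0.71 and 2.03 on the same days.

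Both dye orientations were also compared, because agreement between them was lower on days -14, 1 and 14. With liver in Cy5, SLC27A2 averaged 2.17 on day -30, 1.10 on day -14 and 2.27 on day 28. With liver in Cy3 it averaged 2.04, 0.31 and 1.80. The fall and the return were thus present in each orientation, deeper in Cy3. Cy5 minus Cy3 averaged 0.99 ± 0.51 (SD, positive in 24 of 24 cow-days) on days -14, 1 and 14 and 0.14 ± 0.55 (19 of 29) on the other days. The fall from day -30 to day -14 was -1.07 ± 0.27 (SE) with Cy5 alone (adjusted p = 0.00313) and -1.73 ± 0.30 with Cy3 alone (adjusted p = 1.52e-05). Without the 20 cow-days of low agreement the estimate was -1.07. Cow 7161 was then the only ad libitum cow left on day -14, so no call is drawn from it.

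**Figure D4:**
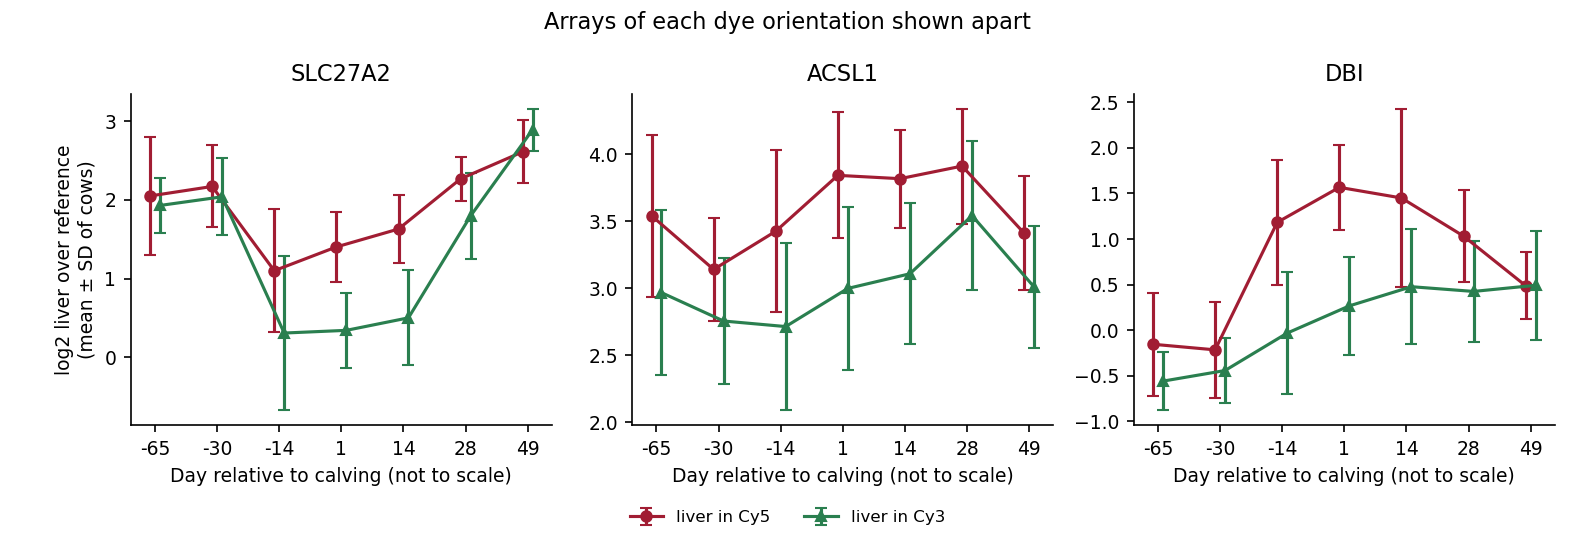
Level of each gene by sampling day with the arrays of each dye orientation apart (log2 liver over reference, vertical axes; points and bars are the mean ± SD of cows). The orientations lay furthest apart on days -14, 1 and 14, where SLC27A2 averaged 1.38 in Cy5 and 0.39 in Cy3 and DBI 1.40 and 0.24, and DBI met at 0.49 in both on day 49.

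ACSL1, the long-chain acyl-CoA synthetase, stood well above the reference in every sample, and its day means moved little. On day -65 its level ran from 2.19 to 4.01 with a median of 3.37. On day -14 it ran from 2.16 to 3.86 with a median of 2.99, and on day 28 from 3.22 to 4.59 with a median of 3.66. All 53 cow-days thus held at least 2.15, the value of cow 6877 on day -30. The day groups overlapped in every comparison made.

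By day mean ACSL1 was highest on day 28 (3.73 ± 0.46, SD, n = 8), then on day 14 (3.46 ± 0.43), day 1 (3.42 ± 0.52) and day -65 (3.25 ± 0.60, n = 7). Day 49 (3.21 ± 0.43, n = 6), day -14 (3.07 ± 0.59) and day -30 (2.95 ± 0.42) followed. No neighbours in this order differed by more than their spread. The cows did not share a common peak day: cows 6886, 7050 and 6952 were highest on day 28, cows 7187, 6877 and 7045 on day 14, and cows 7161 and 7105 on day -65.

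Of the 11 day comparisons, ACSL1 passed in 1, day 28 against day -14 (adjusted p = 0.0445). In that comparison 23.1% of all elements passed, and ACSL1 was rank 1763 by p. The estimate of 0.66 ± 0.24 had a 95% interval of 0.17 to 1.15. Cow 7045 was the exception among the 8, at 3.79 on day -14 and 3.75 on day 28. The call did not hold without cow 6886, 6952, 7050, 7105 or 7187, where adjusted p lay between 0.0770 and 0.119. The estimate was 0.49 with liver in Cy5 alone (adjusted p = 0.181) and 0.83 with Cy3 alone (adjusted p = 0.0127). Without the 20 cow-days of low agreement it was 0.30, with cow 7161 the only ad libitum cow left on day -14. Without centring the arrays, the median of all elements fell by 0.61 between these days, and the estimate for ACSL1 was 0.04 (adjusted p = 0.926). Scale normalization moved it the other way, to 1.56 (adjusted p = 0.000150).

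The estimate for day 28 against day -30 was larger, 0.78 ± 0.24 (7 of 8 cows, 95% interval 0.29 to 1.27). It did not pass (adjusted p = 0.105) in a comparison where few elements did, but it passed under scale normalization (1.16, adjusted p = 0.0278). Between days -30 and -14, where SLC27A2 fell, ACSL1 differed by 0.12 (interval -0.37 to 0.61). From day -14 to day 1 it was 0.35 higher (interval -0.14 to 0.84, 6 of 8 cows, adjusted p = 0.685). Day 49 lay below day 28 (estimate -0.45 ± 0.27, 4 of 6 cows, unadjusted p = 0.107).

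Within a diet ACSL1 passed in none of the comparisons. From day -65 to day -14 the restricted cows differed by 0.15 (interval -0.54 to 0.84) and the ad libitum cows by -0.59 (interval -1.34 to 0.16). The test of the difference between these changes gave -0.73 ± 0.51 (adjusted p = 0.439). From day -14 to day 28 the estimates were 0.54 in restricted cows and 0.77 in ad libitum cows, with adjusted p of 0.267 and 0.228. Under scale normalization both of these passed, at 1.66 (adjusted p = 0.00539) and 1.45 (adjusted p = 0.0248). With every cow kept, the estimates over the alternatives ran from -0.18 to 1.66 in restricted cows and 0.25 to 1.45 in ad libitum cows.

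DBI, the acyl-CoA binding protein, lay near or below the reference in the early dry period and above it from day -14 on. On day -65 its level ran from -0.95 to 0.12 with a median of -0.46. On day -30 it ran from -1.08 to 0.03 with a median of -0.12. On day -14 it ran from -0.38 to 1.48 with a median of 0.72. Cows 6886 and 7105 remained below 0 on day -14, at -0.11 and -0.38, and cow 6877 stood at 0.03, so days -30 and -14 overlapped through 3 of the 8 cows.

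On day 1 every cow was above the reference, from 0.10 in cow 6886 to 1.38 in cow 6952, with a median of 0.98. On day 14 the values spread most, from -0.51 to 1.84 with a median of 1.11. On day 28 they ran from -0.42 in cow 7105 to 1.34 in cow 7045, with a median of 0.78. On day 49 they ran from -0.28 in cow 6877 to 0.87 in cow 6952, with a median of 0.72. The single value below 0 on each of days 14, 28 and 49 came from a restricted cow, 6952, 7105 and 6877 in turn.

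The day means of DBI were 0.96 ± 0.79 (SD, n = 8) on day 14, 0.92 ± 0.46 on day 1, 0.73 ± 0.52 on day 28, 0.58 ± 0.67 on day -14 and 0.49 ± 0.46 on day 49 (n = 6). Days -30 and -65 came last, at -0.33 ± 0.42 and -0.36 ± 0.41. The gap exceeded the larger SD only between day 49 and day -30. The 5 later days did not differ from their neighbours beyond their spread, and neither did days -30 and -65.

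DBI rose from day -30 to day -14 by 0.90 ± 0.27 (SE, 1.87-fold, 95% interval 0.36 to 1.44), higher in 8 of 8 cows (adjusted p = 0.00845, against the 33.5% of elements that passed). Against day -65 the rise was 0.94 ± 0.28, in 6 of 7 cows (adjusted p = 0.00922). Cow 6886 was the exception, at 0.04 on day -65 and -0.11 on day -14. The second call did not hold without cow 7161 (0.84, adjusted p = 0.0632) or cow 7187 (0.75, adjusted p = 0.0997).

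The rise of DBI was carried mostly by the arrays with liver in Cy5. From day -30 to day -14 it was 1.40 ± 0.31 in that orientation (adjusted p = 0.000703) and 0.41 ± 0.26 with liver in Cy3 (adjusted p = 0.210). Cy5 minus Cy3 averaged 1.16 ± 0.39 (SD) on days -14, 1 and 14 and 0.33 ± 0.39 on the other days. The day test itself passed in each orientation, at adjusted p of 3.63e-06 with Cy5 and 0.000785 with Cy3. Without the 20 cow-days of low agreement the estimate from day -30 to day -14 was 1.24. The only ad libitum cow then left on day -14 was 7161, the highest of that day at 1.48, so no call is drawn from it.

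After day -14 no step of DBI passed. Day 1 was 0.34 above day -14 (95% interval -0.20 to 0.88, 7 of 8 cows), day 28 was 0.15 above it (interval -0.39 to 0.69), and day 49 was within 0.03 of it (estimate -0.03, interval -0.64 to 0.57). Against day -30, day 28 was higher by 1.06 ± 0.27 in 8 of 8 cows, rank 42 by p among all elements, yet it stood just outside the threshold (adjusted p = 0.0525, and 0.0391 with the cow as a fixed block). Against day -65, day 49 was higher by 0.91 ± 0.31 in 6 of 6 cows (adjusted p = 0.438). The estimate for day 28 against day -30 was 1.25 with Cy5 and 0.87 with Cy3 (adjusted p = 0.0863 and 0.0962).

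Within diets the ad libitum cows gave the larger estimate for DBI from day -65 to day -14. It was 1.33 ± 0.41 (adjusted p = 0.0285), with 2 of the 3 cows measured on both days higher. This call was lost with liver in Cy3 alone (0.74, adjusted p = 0.182) and with agreement as a covariate (1.42, adjusted p = 0.0684). It was also lost without cow 7050 (1.33, adjusted p = 0.0591), 7161 (1.12, adjusted p = 0.229) or 7187 (0.95, adjusted p = 0.375). Without the cow-days of low agreement the estimate was 1.94, with cow 7161 the only ad libitum cow left on day -14. The restricted cows differed by 0.56 ± 0.38, higher in 4 of 4 (adjusted p = 0.282). The difference between these changes, 0.77 ± 0.56, did not pass (95% interval -0.35 to 1.89, adjusted p = 0.458). From day -14 to day 1 the restricted estimate was 0.73 ± 0.38 with 4 of 4 cows higher (adjusted p = 0.380), and the ad libitum estimate was -0.05 with 1 of 4 cows lower. None of the 3 genes passed within a diet for day 1 against day -14 (background 0.112% restricted, 0.0124% ad libitum and 0% for the difference, with 608 at an unadjusted p under 0.05 in limma) or for day 28 against day -30 (0.0124%, 0% and 0%, with 294 and 33 at an unadjusted p under 0.05 for the last 2).

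The diets themselves were compared on each day. For SLC27A2, ad libitum minus restricted lay between -0.17 (day 28) and 0.33 (day -30). For ACSL1 it lay between -0.47 on day 14 and 0.47 on day -65, and for DBI between -0.32 on day 14 and 0.60 on day -14. None passed, and the widest of the 95% intervals, for DBI on day 49 with 2 ad libitum cows, ran from -0.60 to 1.28. On days -14, 1 and 14 the share of all elements that passed was 6.08%, 10.7% and 15.3%, and on days -65, -30, 28 and 49 it was 0% (285, 77, 93 and 48 elements at an unadjusted p under 0.05 in limma).

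**Figure D5:**
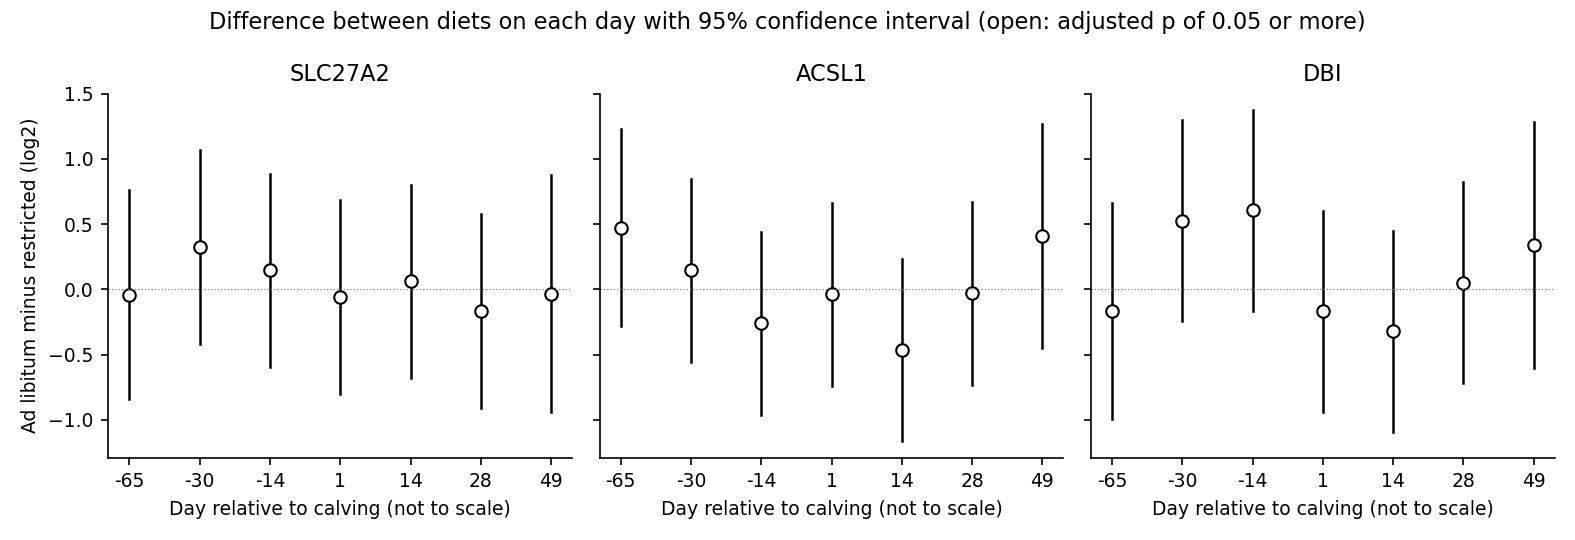
Ad libitum minus restricted (log2, vertical axis) for each gene on each sampling day (horizontal axis); dots are estimates and lines 95% confidence intervals. All 21 intervals include 0, and the estimates run from -0.47 (ACSL1, day 14) to 0.60 (DBI, day -14).

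Averaged within each cow over days -30 and -14, DBI stood at 0.41 ± 0.38 (SD, n = 4) in ad libitum and -0.16 ± 0.51 (n = 4) in restricted cows. The difference of 0.57 ± 0.26 (SE, 95% interval -0.01 to 1.14) did not pass (adjusted p = 0.391). In this comparison 0% of elements passed with limma, and 1043 had an unadjusted p under 0.05. After calving (mean of days 1, 14 and 28) DBI stood at 0.80 ± 0.31 and 0.94 ± 0.35, a difference of -0.15 ± 0.20 (adjusted p = 0.738, background 10.4%). The diet difference after minus before calving was -0.71 ± 0.25 (interval -1.26 to -0.16, rank 144 by p, adjusted p = 0.514), since DBI increased from before to after calving by 0.39 ± 0.24 (SD) in ad libitum and 1.10 ± 0.51 in restricted cows. Again 0% of elements passed, with 694 at an unadjusted p under 0.05 in limma.

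SLC27A2 differed between diets by 0.24 ± 0.25 (SE) before calving (95% interval -0.31 to 0.78, adjusted p = 0.692) and by -0.06 ± 0.18 after it (interval -0.45 to 0.34, adjusted p = 0.901). ACSL1 differed by -0.06 ± 0.22 (interval -0.54 to 0.42) and by -0.18 ± 0.18 (interval -0.58 to 0.22).

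No pair of the 3 genes ran closely together over the single samples. Pearson's r over the 53 cow-days was 0.17 between SLC27A2 and ACSL1, -0.25 between SLC27A2 and DBI and 0.37 between ACSL1 and DBI. Over deviations from the diet and day means it was 0.42, 0.12 and 0.28. Over the 7 day means it was -0.07, -0.50 and 0.62. These are descriptions over points that share cows and, within a cow-day, arrays.

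The elements most like each gene over cow-days were found among 5476 with 1 other symbol and values in at least 50 cow-days. They were picked on the same samples that the day tests below use. A change like that of the gene thus follows from the choice and is no separate support. For SLC27A2 these were ENPP1 (r = 0.947, n = 50), an ectoenzyme that makes pyrophosphate, ARHGEF26 (0.884), the mitochondrial superoxide dismutase SOD2 (0.879), the endothelial receptor KDR (0.875) and TMEM147 (0.866). KDR also stands in the endothelial marker list. SOD2 fell by 1.02 ± 0.20 from day -65 to day -14 (estimate -1.02, adjusted p = 0.000186) and rose by 0.85 ± 0.20 from day -14 to day 28 (adjusted p = 0.00131). This KDR element fell by 1.46 ± 0.24 and then rose by 0.99 ± 0.23 (adjusted p = 1.12e-05 and 0.00137). Its mean level was 0.79. Another KDR element, at a mean level of 2.58, was not among the most alike.

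For ACSL1 the most alike element was CPT2 (r = 0.713, n = 53), the inner-membrane carnitine palmitoyltransferase that acts after activation, followed by SLC17A5 (0.692), DNAJC16 (0.686), TGOLN2 (0.685) and SEC31A (0.666). CPT2 differed by 0.35 ± 0.17 between days -14 and 28 (adjusted p = 0.121). For DBI they were ATP5MK (0.848), a subunit of the mitochondrial ATP synthase, the proteasome subunit PSMA7 (0.828) and the dihydroceramide desaturase DEGS1 (0.807). The respiratory chain genes NDUFA4 (0.801) and NDUFS4 (0.794) followed. ATP5MK rose by 0.91 ± 0.18 from day -65 to day -14 (adjusted p = 0.000161) and PSMA7 by 0.86 ± 0.18 (adjusted p = 0.000382). In the same comparison NDUFA4 rose by 0.61 (adjusted p = 0.00342) and DEGS1 by 0.52 (adjusted p = 0.0364). NDUFS4, at 0.45, did not pass (adjusted p = 0.0504). All of these were picked for likeness to DBI over the same cow-days, so their rise is no separate support.

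Other genes of the pathway were counted in the same comparisons. The lists of fatty acid uptake, activation, acyl-CoA binding, carnitine shuttle, oxidation, ketogenesis, glycerolipid synthesis and their regulators held 35 other genes on 44 tested elements. From day -30 to day -14, 4 of the 44 rose and 5 fell, where 33.5% of all elements passed (median estimate 0.04, against 0.06 over all elements). From day -65 to day -14, 3 rose and 7 fell, against a background of 31.7% (median -0.07, against 0.05). From day -14 to day 28, 6 rose and 1 fell, against 23.1% (median 0.14, against 0.01), and from day -14 to day 49, 5 rose and 2 fell, against 33.9%. The diets differed after calving in 5 of the 44, with 4 higher in ad libitum cows, a share near the 10.4% of all elements. Before calving they differed in 0, as in all elements.

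Among the uptake and activation genes, ACSL5, another long-chain acyl-CoA synthetase, had 2 elements that did not move alike. The first rose by 1.01 ± 0.21 from day -65 to day -14 (adjusted p = 0.000385) and fell by 0.58 ± 0.20 from day -14 to day 28 (estimate -0.58, adjusted p = 0.0352). The other rose by 0.65 ± 0.24 in the first comparison (adjusted p = 0.0358), but gave -0.11 ± 0.23 in the second (adjusted p = 0.772). From day -30 to day -14 the elements gave 0.82 ± 0.20 (adjusted p = 0.00205) and -0.05 ± 0.23 (adjusted p = 0.880). FABP5, an intracellular fatty acid binding protein, fell from day -30 to day -14 on 3 of its 4 elements, by estimates of -0.64, -0.69 and -0.50 (adjusted p = 0.000348, 0.00853 and 0.00186). The remaining element gave 0.14 ± 0.16 (adjusted p = 0.526).

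Among genes of fatty acid oxidation, CPT1A, the outer carnitine palmitoyltransferase, rose from day -30 to day -14 on 1 of its 2 elements, by 0.71 ± 0.19 (adjusted p = 0.00470), and the other gave 0.15 ± 0.16 (adjusted p = 0.477). The short-chain acyl-CoA dehydrogenase ACADS fell by 0.82 ± 0.21 from day -65 to day -14 (estimate -0.82, adjusted p = 0.00334) and rose by 1.09 ± 0.20 from day -14 to day 28 (adjusted p = 0.000111). Among genes of glycerolipid synthesis, the acyltransferase AGPAT1 was 0.61 ± 0.13 higher and AGPAT2 0.99 ± 0.25 lower (estimate -0.99) in ad libitum cows after calving (adjusted p = 0.00836 and 0.0263). FABP5 was higher in the same comparison on 1 of its 4 elements, by 0.79 ± 0.11 (adjusted p = 0.00100), and the other 3 lay between -0.06 and 0.00. None of these diet calls held without the cow-days of low agreement. None held either without those whose agreement stayed under 0.75 after each element's mean dye difference was removed, a setting chosen after seeing the data. In both settings 0 of all elements passed, against 835 in the main fit, so the loss was not particular to these genes. The cows were then averaged over unlike sets of days.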

How the data were processed

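Each deposited value is a log2 ratio of Cy5 to Cy3 for 1 of 16416 spots on 1 of 106 arrays. Slides were scanned in both dye channels and images processed with GenePix, per the labels' protocols. The sources used here state neither background correction nor normalization, and no spot intensities were used. The log base was taken from the deposited values, where exactly 1 and -1 were 3.79 and 11.3 times as frequent as neighbouring values. Array medians ran from -1.69 to 1.80.

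Duplicate spots were averaged to 8208 elements. Ratios were turned to liver over reference by the dye in the titles and label fields, because the longer text of some arrays named the opposite dye. Each array was centred on its median, and both arrays of a cow-day were averaged, so that they counted as 1 replicate. The 8061 elements with at least 2 cows in every group were tested in R 4.3.3 with limma 3.58.1 on 14 diet and day means, with the cow as a random block (consensus correlation 0.0176). Diets before and after calving were tested on 1 value per cow. P-values were adjusted by the Benjamini-Hochberg method over all tested elements, with a threshold of 0.05. Same-numbered samples come from the same cow, which is where the pairing comes from. Figures were drawn with Python 3.11.15 and matplotlib 3.10.9. The fit was tested on simulated data.

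The 3 genes are always named. For each, the 5 elements with the highest r over at least 50 cow-days are named, and of the pathway lists up to 4 members per list and comparison with the smallest p. The members and lists were chosen with earlier results of these data known. The alternatives were the normalization, the dye orientation, the block, agreement between orientations, the filter on missing values, the duplicate spot and leaving out each cow. Precision is limited by the number of cows and arrays. No reference sequence of the elements was used here.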

Additional observations from a re-analysis of the deposited data

Results flagged for a closer look

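DBI in restricted cow 6952 on day 14 stood apart from the other cows of its group. Its level was -0.51, whereas the other 3 restricted cows of that day lay between 1.47 and 1.84. The gap made up 0.843 of the whole range, against Dixon's critical value of 0.829 for 4 samples. It was the 1 value singled out in 36 groups tested, and chance singles out about 1 group in 20. The remaining 6 groups were too small for the rule.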

How the results depend on the processing

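Each gene was refitted under 23 alternatives, and the 2 built on dye-corrected agreement were chosen after seeing the data. Of 763 values per gene, 724 of SLC27A2, 743 of ACSL1 and 745 of DBI stayed on their side of the threshold, and no value that passed changed sign. Among values that did not pass, 50, 79 and 39 changed sign. Without centring, SLC27A2 on day 28 minus day -14 was 0.70 (adjusted p = 0.0524) and on day 28 minus day 14 was 0.49, and ACSL1 on day 28 minus day -14 was 0.036. The median of all elements then moved by -0.61 in day 28 minus day -14 and by 0.54 in day -14 minus day -65. Without cow-days of agreement under 0.6, SLC27A2 was -0.99 in day -14 minus day -65, 0.99 in day 28 minus day -14 and 0.89 in day 28 minus day 14. ACSL1 was 0.30 in day 28 minus day -14. Cow 7161 was then the only ad libitum cow on days -14 and 14, so only estimates are given. That setting had no test over all days and no comparison of day 1 alone that used ad libitum cows, since it held no ad libitum sample of day 1. The diets after calving were still compared, on whichever of days 1, 14 and 28 each cow kept. Each ad libitum cow kept only day 14 or day 28, while restricted cows 6877 and 6952 kept all of these days. Diet and day cannot be told apart there. Day 1 against day -14 within restricted cows remained. With liver in Cy5 only, SLC27A2 was 0.64 in day 28 minus day 14 and ACSL1 0.49 in day 28 minus day -14. With liver in Cy3 only, DBI was 0.52 in day -14 minus day -65 (adjusted p = 0.125). For ACSL1 in day 28 minus day -14 the estimate was 0.60 with quantile normalization, 0.64 with agreement as a covariate, 0.65 with the first spot only, 0.67 without cow-days of dye-corrected agreement under 0.75 and 0.55 with that agreement as a covariate, none of which passed. The last 2 settings gave 0.77 and 0.76 for SLC27A2 in day 28 minus day 14. Under scale normalization ACSL1 passed over all days (adjusted p = 0.00263), in day 28 minus day 14 (1.10) and in day 49 minus day -14 (0.88). Leaving out each cow in turn gave ACSL1 0.57 to 0.76 in day 28 minus day -14 and an adjusted p over all days of 0.0292 (without cow 7105) to 0.338. It gave DBI 0.75 to 1.23 in day -14 minus day -65 and SLC27A2 0.87 to 1.10 in day 28 minus day 14. Of the block, which pairs the samples of a cow, SLC27A2 in day 28 minus day -14 was 1.33 with no replicate block (adjusted p = 0.000211) and with a fixed replicate block (adjusted p = 0.000317). With the fixed block DBI passed in day 28 minus day -30 (adjusted p = 0.0391) and SLC27A2 did not pass in ad libitum cows in day -14 minus day -65 (adjusted p = 0.0534). Over all elements, the count that passed, with every cow kept, ran from 2163 to 4762 over all days (main 3496), 1727 to 3461 in day -14 minus day -30 (2703), 1267 to 3815 in day -14 minus day -65 (2559), 750 to 4821 in day 28 minus day -14 (1861), 206 to 2551 in day 28 minus day 14 (695), 10 to 380 in day 28 minus day -30 (28), 1319 to 3416 in day 49 minus day -14 (2733) and 0 to 861 for the diets after calving (835). The cause of these changes was not tested.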
